A study of Yarrowia lipolytica with 35 samples.

Results

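Noncoding RNA genes of the yeast Yarrowia lipolytica are described here across 35 RNA-seq libraries. They are locus tags ending in r, and they were chosen by their read counts: 10 or more reads in at least 3 libraries. Of 639 noncoding tags among 7132 genes in the count table, 172 met this rule, 467 did not, and 25 had no read in any library. The rule used the reads themselves, so the levels of these genes are a description, and a gene that met it through the group where it was high had to differ between groups.

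Cells were grown in bioreactors with glycerol or glucose as the sole carbon source, and the strains were DSM-21175 and DSM-3286. The 32 h samples were taken in nitrogen-limited stationary phase at pH 3.5 or pH 5.5. The growth-phase samples were taken at pH 5.5 only, after 8 h on glycerol and after 12 h on glucose. Each of the 12 groups (strain, carbon source, and 32 h at pH 3.5, 32 h at pH 5.5 or growth) had 3 libraries, except DSM-3286 on glucose at 32 h and pH 5.5, which had 2. The submitters call the samples biological triplicates, and p-values measure the spread between these samples. In growth phase the carbon sources differed in the hour of sampling as well, and the effects cannot be told apart.

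These RNAs do the work of making and maturing other RNAs and proteins. tRNAs carry amino acids to the ribosome, and rRNA is the core of the ribosome itself. Small nucleolar RNAs (snoRNAs) guide modification and cleavage of rRNA, small nuclear RNAs (snRNAs) are parts of the spliceosome, and RNase P is the ribonucleoprotein that trims the leader from tRNA precursors. RNA polymerase III makes tRNA and the small rRNA of the large ribosomal subunit. In Y. lipolytica many genes for that small rRNA lie behind a tRNA gene and are transcribed together with it.

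The libraries were strand-specific and made after poly(A) selection. Mature RNAs of these classes mostly carry no poly(A) tail, so a level here is the amount that passed the selection, and its part in any difference was not tested. Fewer cells carrying an RNA and less RNA per cell cannot be told apart in these bulk samples. Most tRNA and rRNA genes belong to families of near-identical copies. How reads shared between copies, or between overlapping genes, were counted is not stated in any source used here, and the level of a single tRNA or rRNA gene is therefore uncertain.

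Total reads per library ranged from 6704058 to 25702157 with a median of 12546196. In DSM-21175, 5 libraries stood apart, with a Pearson correlation across genes to either replicate that was lower, by over 0.005, than that between the other two. They were replicate 3 of glycerol at 32 h and pH 3.5, replicate 3 of glycerol at 32 h and pH 5.5, replicate 3 of glucose at 32 h and pH 5.5, replicate 2 of glycerol growth and replicate 3 of glucose growth. Counts of genes called are given with and without them.

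By the gene types in RefSeq, the 172 genes were 124 tRNA, 32 rRNA, 6 snRNA, 3 snoRNA and 2 small cytoplasmic RNA (scRNA) genes, 1 RNase P RNA gene and 4 that could not be matched. The types of the snoRNA, snRNA, scRNA and RNase P RNA genes rest on neighbouring genes and gene length. All tags matched to those types met the rule, against 24.8% of the tRNA tags and 29.6% of the 108 rRNA tags. Of the 124 tRNA genes, 90 had an exonic length shorter than the gene, as genes with an intron do. All 32 rRNA genes were 119 bases long, and 19 of them lay next to a tRNA tag.

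Just inside the rule were the tRNA genes YALI0A08822r, with 55 reads over all libraries, and YALI0B10648r, with 63, each at 10 reads or more in 3 libraries. Just outside were the tRNA gene YALI0A06303r, with 116 reads but only 1 library at 10 or more, and the rRNA gene YALI0D08811r, with 115 reads and 2 such libraries. The rule therefore favours genes whose reads gather in few libraries over genes with more reads spread thinly.

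Together the 172 genes took 290328 of 461301355 reads, and 3 of them held 67.2% of these reads. The 10 with the highest totals held 82.6%. Only 11 genes had 10 or more reads in every library, 38 had them in exactly 3, and the median gene had them in 6. For 15 genes all libraries at 10 reads or more belonged to 1 group, which was DSM-3286 on glycerol at 32 h and pH 5.5 for 12 of them and DSM-3286 growing on glycerol for 3. A mean under 10 reads per library was seen for 121 genes, so single values of these genes carry a large counting error.

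In DSM-21175 the share of reads in these genes, as mean ± SD over libraries, was 0.0557 ± 0.00786% on glycerol and 0.0395 ± 0.00751% on glucose at 32 h and pH 3.5 (n = 3 each). At 32 h and pH 5.5 it was 0.098 ± 0.00956% on glycerol and 0.0735 ± 0.0332% on glucose (n = 3 each). In growth phase it was 0.0661 ± 0.00887% on glycerol and 0.0468 ± 0.00522% on glucose (n = 3 each). The wide spread on glucose at pH 5.5 came from the replicate 3 that stood apart, at 0.112%, against 0.0498% and 0.0592% in the others.

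In DSM-3286 the share spanned a wider range. It was 0.0312 ± 0.00228% on glycerol and 0.0204 ± 0.00206% on glucose at 32 h and pH 3.5 (n = 3 each), the lowest of all groups. At 32 h and pH 5.5 it reached 0.172 ± 0.023% on glycerol (n = 3) and 0.0612 ± 0.00313% on glucose (n = 2). In growth phase it was 0.0881 ± 0.00626% on glycerol and 0.0451 ± 0.00388% on glucose (n = 3 each). The 3 DSM-3286 glycerol libraries at 32 h and pH 5.5 held the 3 highest shares of all libraries, at 0.152%, 0.167% and 0.197%. Mitochondrial transcripts took 0.00339 to 0.00583% of the reads in DSM-3286 glycerol libraries at pH 3.5 and 0.0109, 0.0181 and 0.0653% at pH 5.5, so they were higher there too. Their part in the noncoding share was not tested.

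**Figure D1:**
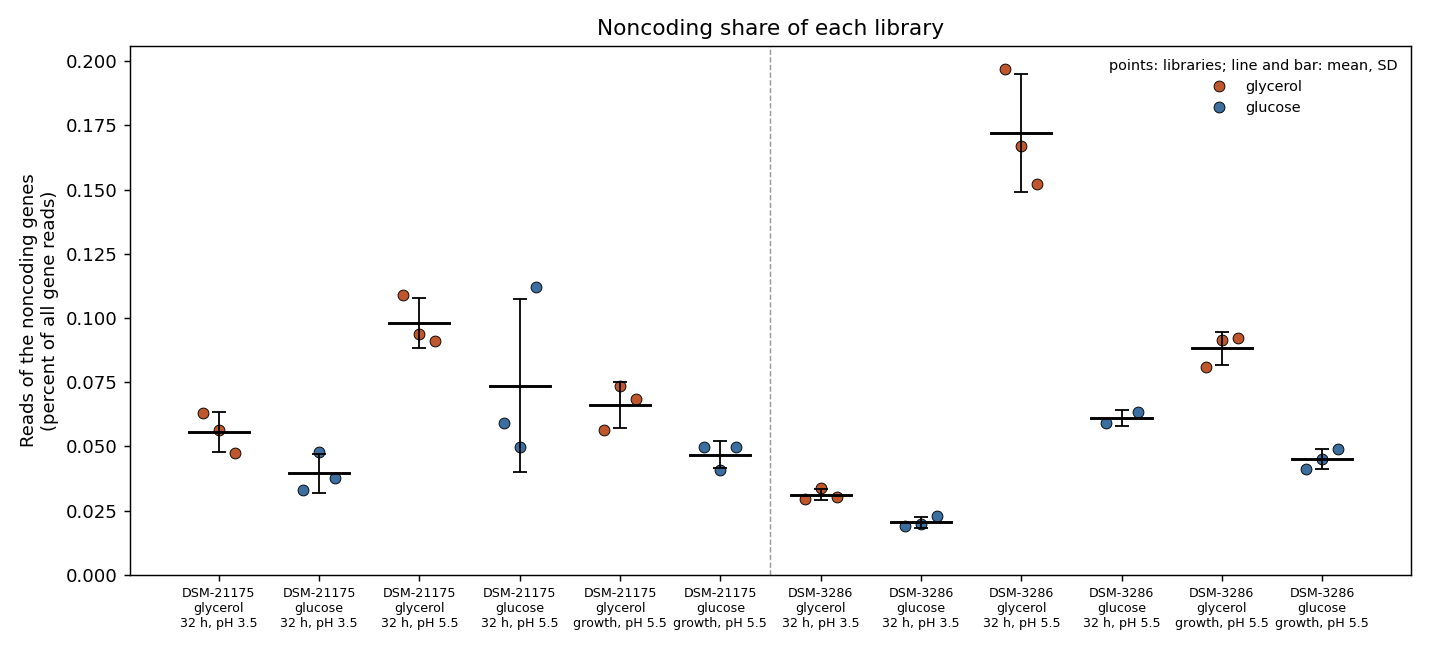
Percent of all gene reads that fell in the 172 noncoding genes, by group (points, libraries; line and bar, mean and SD; n = 3, or 2 for DSM-3286 on glucose at 32 h and pH 5.5). DSM-3286 on glycerol at 32 h stood at 0.0312% at pH 3.5 and 0.172% at pH 5.5, the second value above every other group.

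The 3 snoRNA genes were the most abundant of the set. YALI0E01422r (261 bases) averaged 248 CPM over the 35 libraries, YALI0E31947r (263 bases) 133 CPM and YALI0F23873r (268 bases) 63.3 CPM, where CPM is the read count scaled by the library total. Per kilobase they stood at 950, 507 and 236 CPM. The scRNA gene YALI0D06405r, only 44 bases long, stood between them per length, at 445 CPM per kilobase.

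At 32 h on glycerol, YALI0E01422r had 120, 122 and 131 CPM in DSM-3286 at pH 3.5, against 503, 589 and 657 CPM at pH 5.5. In DSM-21175 it had 177, 264 and 277 CPM at pH 3.5, against 369, 396 and 471 CPM at pH 5.5. The pH groups did not overlap in either strain. On glucose it had 67.2, 68.7 and 79.1 CPM in DSM-3286 at pH 3.5, against 194 and 194 CPM at pH 5.5. In DSM-21175 on glucose the values were 110, 121 and 172 CPM at pH 3.5, against 187, 219 and 517 CPM at pH 5.5, where the highest value is the library that stood apart. Averaged over strain and carbon source the log2 fold change was -1.41 ± 0.12 (SE; edgeR quasi-likelihood test, Benjamini-Hochberg adjusted p = 1.62e-10), and it was -1.23 without the 5 libraries.

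The other snoRNA genes were lower at pH 3.5 as well. On glycerol YALI0E31947r had a mean of 78.2 CPM at pH 3.5 and 357 CPM at pH 5.5 in DSM-3286, and 80.8 and 147 CPM at these pH values in DSM-21175. The means of YALI0F23873r were 31.3 CPM at pH 3.5 and 127 CPM at pH 5.5 in DSM-3286, and 52.3 and 81.5 CPM in DSM-21175. All 3 fell at pH 3.5 within each strain and carbon source, by 0.64 to 2.23 on the log2 scale (edgeR, adjusted p under 0.05 in all 12 tests). The shares of all genes called lower were 34.3% on glycerol and 23.4% on glucose in DSM-3286, and 13.4% and 13.9% in DSM-21175. In DSM-21175 on glucose YALI0E31947r overlapped, with 50, 55 and 72.6 CPM at pH 3.5, against 72.2, 92.3 and 151 CPM at pH 5.5. In that pair replicate 3 at pH 5.5, which stood apart, was the highest library for all 3 snoRNA genes. The fall in DSM-3286 was deeper than in DSM-21175 for each of them, by 0.84 ± 0.25, 1.0 ± 0.19 and 1.04 ± 0.22 for YALI0E01422r, YALI0E31947r and YALI0F23873r (difference of log2 fold changes ± SE; edgeR adjusted p = 0.00799, 0.000127 and 0.000587).

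Averaged over strains, and at 32 h over pH values too, all 3 snoRNA genes rose on glycerol in both phases. Of all genes 31.8% were higher in growth and 22.2% at 32 h. In growth phase YALI0E01422r had 272, 327 and 357 CPM on glycerol, against 104, 121 and 127 CPM on glucose, in DSM-21175. In DSM-3286 it had 323, 364 and 387 CPM on glycerol, against 88.8, 96.6 and 104 CPM on glucose. The groups did not overlap, and the log2 fold change was 1.67 ± 0.17 (edgeR adjusted p = 3.61e-09). YALI0E31947r rose by 0.45 ± 0.13 and YALI0F23873r by 0.73 ± 0.15 (edgeR adjusted p = 0.00309 and 0.000152). In growing DSM-21175 the carbon sources overlapped for YALI0E31947r, with 131, 160 and 170 CPM on glycerol, against 116, 136 and 146 CPM on glucose. At 32 h the log2 fold changes of the 3 lay between 0.80 and 0.91. In DSM-21175 at pH 5.5 the glucose replicate 3 that stood apart lay within or above the glycerol values for each of them. At 32 h relative to growth, averaged over strains and carbon sources, YALI0E01422r rose by 0.87 ± 0.12 (edgeR adjusted p = 2.94e-07), and the averages of the other two were not called. The pairs of groups differed for YALI0E31947r. It had 328, 354 and 389 CPM at 32 h in DSM-3286 on glycerol, against 171, 197 and 207 CPM in growth. The phases lay apart there, with a log2 fold change of 0.90 ± 0.18 (edgeR adjusted p = 5.99e-05). In DSM-21175 on glucose it gave -0.34 ± 0.18 (edgeR adjusted p = 0.095). YALI0F23873r was called in none of the 4 pairs.

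The 6 snRNA genes had mean levels below those of the snoRNA genes. YALI0D22905r (149 bases) averaged 21.8 CPM, YALI0F10145r (443 bases) 19.2 CPM, YALI0B14567r (150 bases) 7.73 CPM, YALI0B20936r (112 bases) 7.6 CPM and YALI0C03391r (197 bases) 3.97 CPM. YALI0F07549r (182 bases) was the lowest, with a mean of 22.8 reads per library.

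Averaged over strains and carbon sources, all 6 rose at 32 h relative to growth phase (all genes, 42.9% higher). By pairs of groups, 6 rose in DSM-3286 and 5 in DSM-21175 on glycerol, and 3 rose in each strain on glucose, with none called lower. Among all genes 40.2% were higher in DSM-3286 and 37.3% in DSM-21175 on glycerol, and 36.8% and 37.1% on glucose. Values below 0 were seen on glucose. YALI0B14567r gave -0.42 ± 0.32 in DSM-3286 (edgeR adjusted p = 0.243), and YALI0F07549r gave -0.24 in DSM-21175. In DSM-3286 on glycerol, YALI0D22905r had 56.1, 73 and 74 CPM at 32 h and pH 5.5, against 11.5, 12 and 12.4 CPM in growth. In DSM-21175 on glycerol it had 23.5, 25.7 and 29.5 CPM at 32 h, against 5.83, 8.75 and 13.4 CPM in growth. The ranges lay apart in both strains, and the averaged log2 fold change was 1.30 ± 0.12 (edgeR adjusted p = 4.46e-11). YALI0B20936r rose by 1.51 ± 0.15, YALI0F10145r by 1.38 ± 0.11 and YALI0C03391r by 1.22 ± 0.16. The rise of YALI0B20936r was 2.93 ± 0.33 in DSM-21175 on glycerol, where it had 13.7, 16 and 16.3 CPM at 32 h, against 0.719, 2.2 and 2.9 CPM in growth. In the other 3 pairs of groups it lay between 0.65 and 1.58.

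In growth phase 3 snRNA genes were lower on glycerol (all genes, 30.7% lower), the opposite sign to the snoRNA genes. YALI0F10145r had 5.28, 5.39 and 8.35 CPM on glycerol, against 10.1, 10.2 and 13 CPM on glucose, in DSM-21175. In DSM-3286 it had 11.4, 13 and 13 CPM on glycerol, against 14.4, 21.7 and 22.1 CPM on glucose. The carbon sources did not overlap in either strain. The log2 fold changes were -0.72 ± 0.15 for YALI0F10145r, -0.73 ± 0.17 for YALI0D22905r and -0.81 ± 0.23 for YALI0B20936r (edgeR adjusted p = 0.000201, 0.000613 and 0.00308). YALI0C03391r rose instead in the average, by 0.78 ± 0.24 (edgeR adjusted p = 0.0066). It had 3.14, 3.15 and 3.56 CPM on glycerol, against 0.92, 1.3 and 1.3 CPM on glucose, in DSM-3286. In DSM-21175 the carbon sources overlapped, with 2.2, 3.6 and 4.3 CPM on glycerol, against 2.4, 2.8 and 4.4 CPM on glucose.

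At 32 h, averaged over strains and pH values, 5 of the 6 snRNA genes rose on glycerol (all genes, 22.2% higher). By pairs of groups, 5 rose in DSM-3286 at pH 5.5, none in DSM-3286 at pH 3.5, and 1 at each pH in DSM-21175. Among all genes 18.8% were higher in DSM-3286 at pH 5.5 and 21.1% at pH 3.5, and 4.47% and 7.39% in DSM-21175. The summed level of the 6 in DSM-3286 at pH 5.5 was 159 ± 20.4 CPM on glycerol (SD, n = 3), against 85.6 ± 7.29 CPM on glucose (n = 2). In DSM-21175 at pH 3.5 it was 57.7 ± 14.9 CPM on glycerol, against 66.9 ± 15.2 CPM on glucose (n = 3 each). The glycerol effect differed between 32 h and growth at pH 5.5 for 5 of the genes, where 49% of all genes were called. That difference was 1.40 ± 0.22 for YALI0F10145r and 1.36 ± 0.24 for YALI0D22905r on the log2 scale (edgeR adjusted p = 4.88e-06 and 3.63e-05). That of YALI0B20936r lost its call in 11 of the settings run, among them a fit restricted to the groups in question (0.78, edgeR adjusted p = 0.061). The rise of YALI0F10145r at 32 h was small, at 0.26 ± 0.11 (edgeR adjusted p = 0.0434), and with the replicate number as a block its adjusted p was 0.0537. It lost its call in 18 settings in all, with values of 0.22 to 0.28 and an adjusted p of up to 0.0988.

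All 6 snRNA genes fell at pH 3.5 in DSM-3286 on either carbon source, and in DSM-21175 3 fell on glycerol and none on glucose. Among all genes 34.3% were lower in DSM-3286 on glycerol and 23.4% on glucose, and 13.4% and 13.9% in DSM-21175. YALI0D22905r had 11.7, 11.9 and 12.7 CPM at pH 3.5, against 56.1, 73 and 74 CPM at pH 5.5, in DSM-3286 on glycerol. In DSM-21175 on glycerol it had 14.2, 20.7 and 23 CPM at pH 3.5, against 23.5, 25.7 and 29.5 CPM at pH 5.5. The log2 fold changes were -2.48 ± 0.24 in DSM-3286 and -0.44 ± 0.23 in DSM-21175. The fall over both carbon sources differed between the strains by 2.0 ± 0.24 (edgeR adjusted p = 2.32e-07). YALI0F07549r reached 8.85, 9.96 and 12 CPM in DSM-3286 on glycerol at 32 h and pH 5.5, and its highest value in any other library was 2.94 CPM.

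The 2 scRNA genes and the RNase P RNA gene fell at pH 3.5 in DSM-3286 and were not called for pH in DSM-21175 on either carbon source. All genes gave 34.3% lower on glycerol and 23.4% on glucose in DSM-3286, and 13.4% and 13.9% in DSM-21175. YALI0A01389r (scRNA, 44 bases) had 1.98, 2.12 and 2.66 CPM at pH 3.5, against 17.2, 18.9 and 23.5 CPM at pH 5.5, in DSM-3286 on glycerol at 32 h. In DSM-21175 the same groups had 2.67, 2.71 and 3.49 CPM at pH 3.5, against 2.12, 2.28 and 4.31 CPM at pH 5.5. The pH groups lay apart in DSM-3286 and overlapped in DSM-21175. The log2 fold changes were -3.13 ± 0.28 and 0.02 ± 0.28, and over both carbon sources the strains differed by 2.33 ± 0.28 (edgeR adjusted p = 2.72e-07). YALI0D06405r (scRNA) and YALI0E17603r (RNase P RNA, 287 bases) differed between the strains in the same way, by 2.15 ± 0.24 and 1.86 ± 0.25 (edgeR adjusted p = 1.01e-07 and 1.45e-06).

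These 3 genes fell at 32 h relative to growth in DSM-21175 (all genes, 39.1% lower on glycerol and 35.3% on glucose). RNase P RNA had 13.9, 16 and 18.9 CPM at 32 h and pH 5.5, against 33.1, 37.5 and 43.3 CPM in growth, on glycerol. In DSM-3286 on glycerol it had 32.6, 39.4 and 47.2 CPM at 32 h, against 32.6, 33.6 and 40.6 CPM in growth. The phases lay apart in DSM-21175 and overlapped in DSM-3286, with log2 fold changes of -1.22 ± 0.23 and 0.15 ± 0.23. On glucose the fall in DSM-21175 was -1.57 ± 0.24 for RNase P RNA, -1.68 ± 0.24 for YALI0D06405r and -1.79 ± 0.28 for YALI0A01389r. In DSM-3286 on glycerol YALI0D06405r rose instead, with 41.4, 43.7 and 57.3 CPM at 32 h, against 27.5, 27.9 and 34.1 CPM in growth. The phases lay apart, with a log2 fold change of 0.66 ± 0.23 (edgeR adjusted p = 0.00912). YALI0A01389r gave 0.25 ± 0.24 there (edgeR adjusted p = 0.338), and none of the 3 was called in DSM-3286 on glucose. Averaged over strains and carbon sources the 3 fell by 0.66 to 1.04 (edgeR adjusted p from 3.04e-08 to 8.43e-06), an average over pairs of unlike sign.

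On glycerol in growth phase RNase P RNA rose, with 32.6, 33.6 and 40.6 CPM on glycerol, against 14.3, 16.5 and 16.9 CPM on glucose, in DSM-3286. In DSM-21175 the values were 33.1, 37.5 and 43.3 CPM on glycerol, against 23, 23.9 and 28.5 CPM on glucose. The averaged log2 fold change was 0.88 ± 0.16 (edgeR adjusted p = 2.75e-05). YALI0A01389r rose by 1.07 ± 0.18 (edgeR adjusted p = 4.98e-06), and YALI0D06405r gave 0.21 ± 0.16 (edgeR adjusted p = 0.249).

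**Figure D2:**
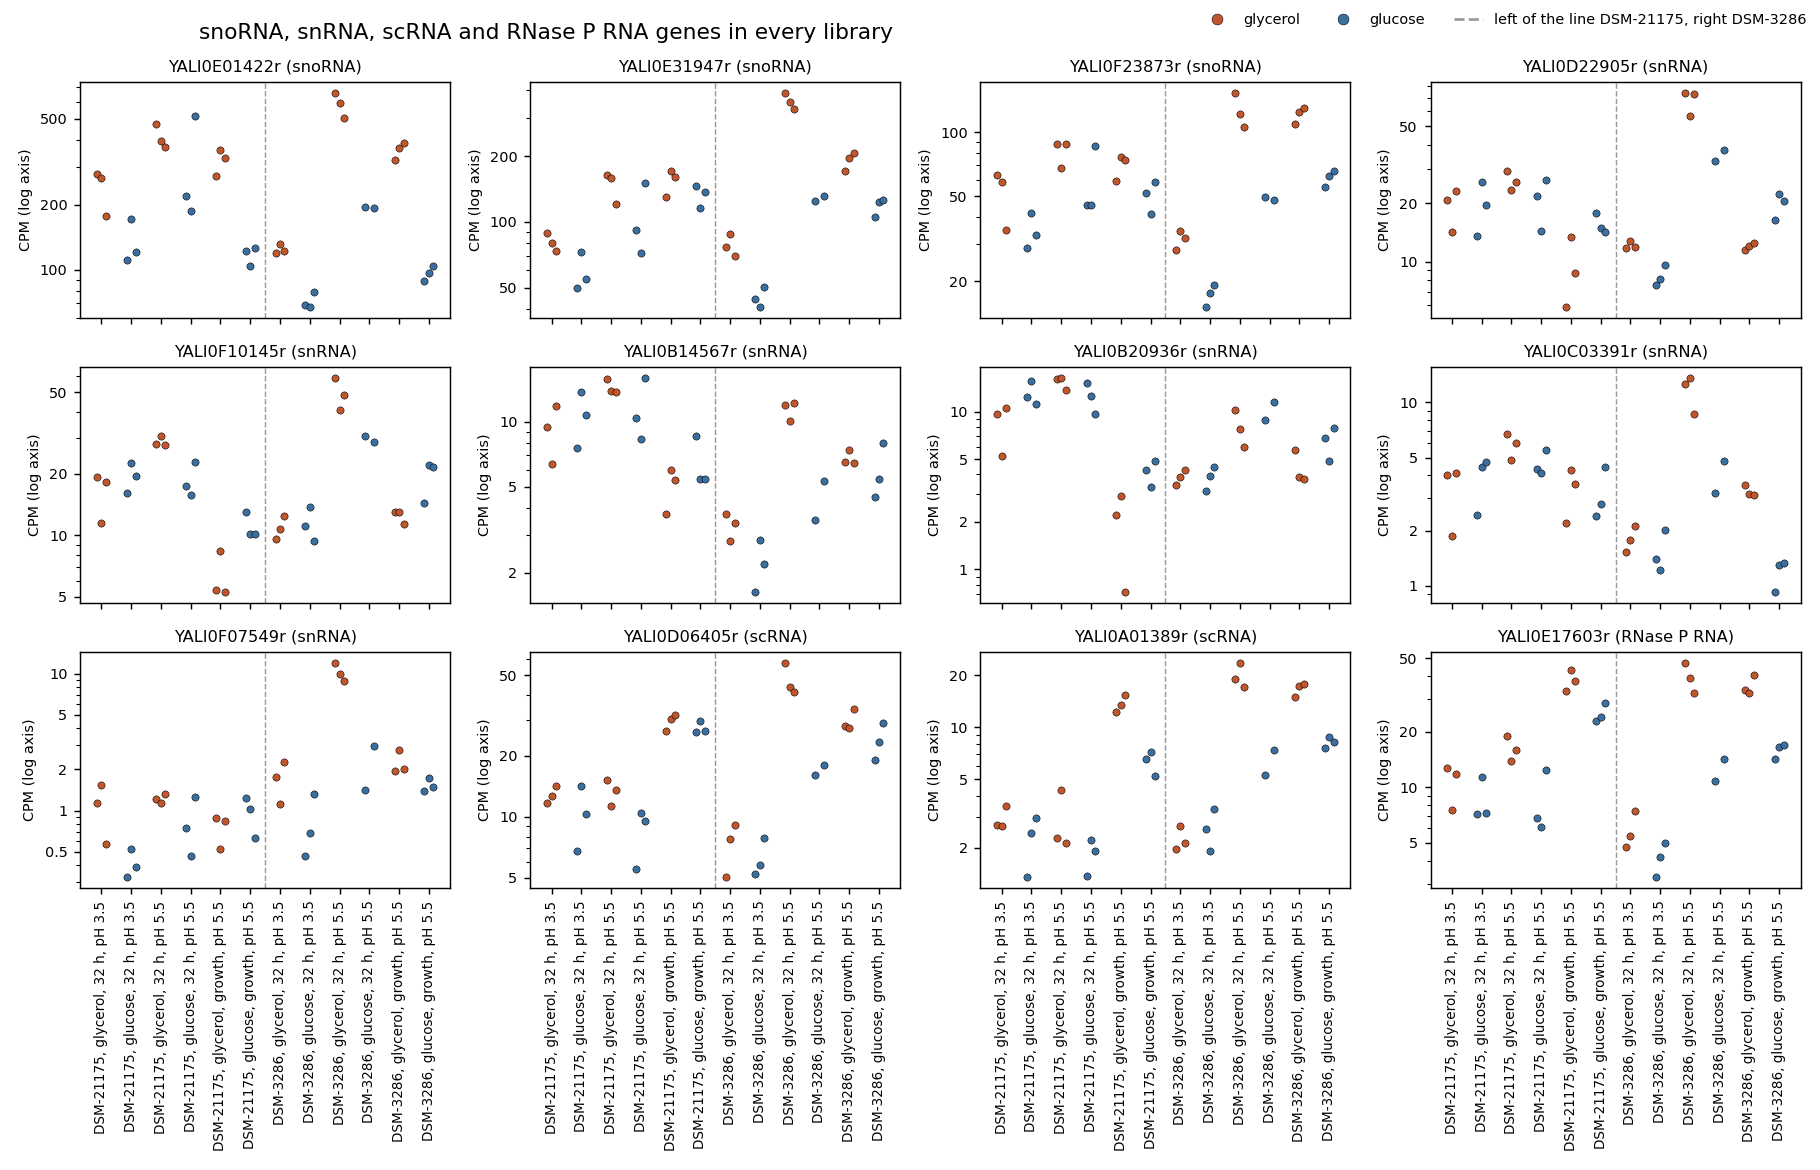
CPM on a log axis of the 3 snoRNA, 6 snRNA and 2 scRNA genes and the RNase P RNA gene in each of the 35 libraries, with 32 h at pH 3.5, 32 h at pH 5.5 and growth for each strain. RNase P RNA stood at a mean of 5.87 CPM at pH 3.5 and 39.7 CPM at pH 5.5 in DSM-3286 on glycerol, and at 10.7 and 16.3 CPM in DSM-21175.

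The 124 tRNA genes held 12% of the reads of the set, with a median gene at 0.436 CPM, or 5.65 CPM per kilobase. The 32 rRNA genes held 4.42%, with a median of 0.387 CPM, or 3.25 CPM per kilobase. In the edgeR fit 6537 genes passed the filter on low counts, among them 171 of the 172 noncoding genes, the exception being the tRNA gene YALI0D16511r.

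The summed level of the tRNA genes was highest in DSM-3286 on glycerol at 32 h and pH 5.5, at 355 ± 61.5 CPM (SD, n = 3). At pH 3.5 it was 44.8 ± 5.01 CPM in the same strain on glycerol. The rRNA genes had 17.8 ± 1.55 CPM at pH 3.5, against 101 ± 12.3 CPM at pH 5.5. In DSM-21175 on glycerol the tRNA sum was 44.4 ± 4.01 CPM at pH 3.5, against 60 ± 9.53 CPM at pH 5.5, and the rRNA sum 23.8 ± 0.838 against 39 ± 4.25 CPM (n = 3 each). The libraries of the 2 pH values did not overlap for either class in either strain on glycerol, though the tRNA ranges in DSM-21175 nearly touched, at 41.2 to 48.9 and 49.1 to 66.6 CPM. The 467 tags that missed the rule moved likewise, with 15.5 ± 1.32 CPM in all at pH 3.5, against 155 ± 24.8 CPM at pH 5.5, in DSM-3286 on glycerol.

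tRNA genes with and without an intron had like medians, and their difference was not tested. In DSM-3286 on glycerol the median log2 fold change at pH 3.5 was -3.46 over the 90 interrupted genes and -3.63 over the 33 uninterrupted ones tested. rRNA genes beside a tRNA tag had a median of -3.95 (19 genes) and the others -2.21 (13 genes), and this difference was not tested. In 3 places an rRNA gene and its neighbouring tRNA gene were both in the set.

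**Figure D3:**
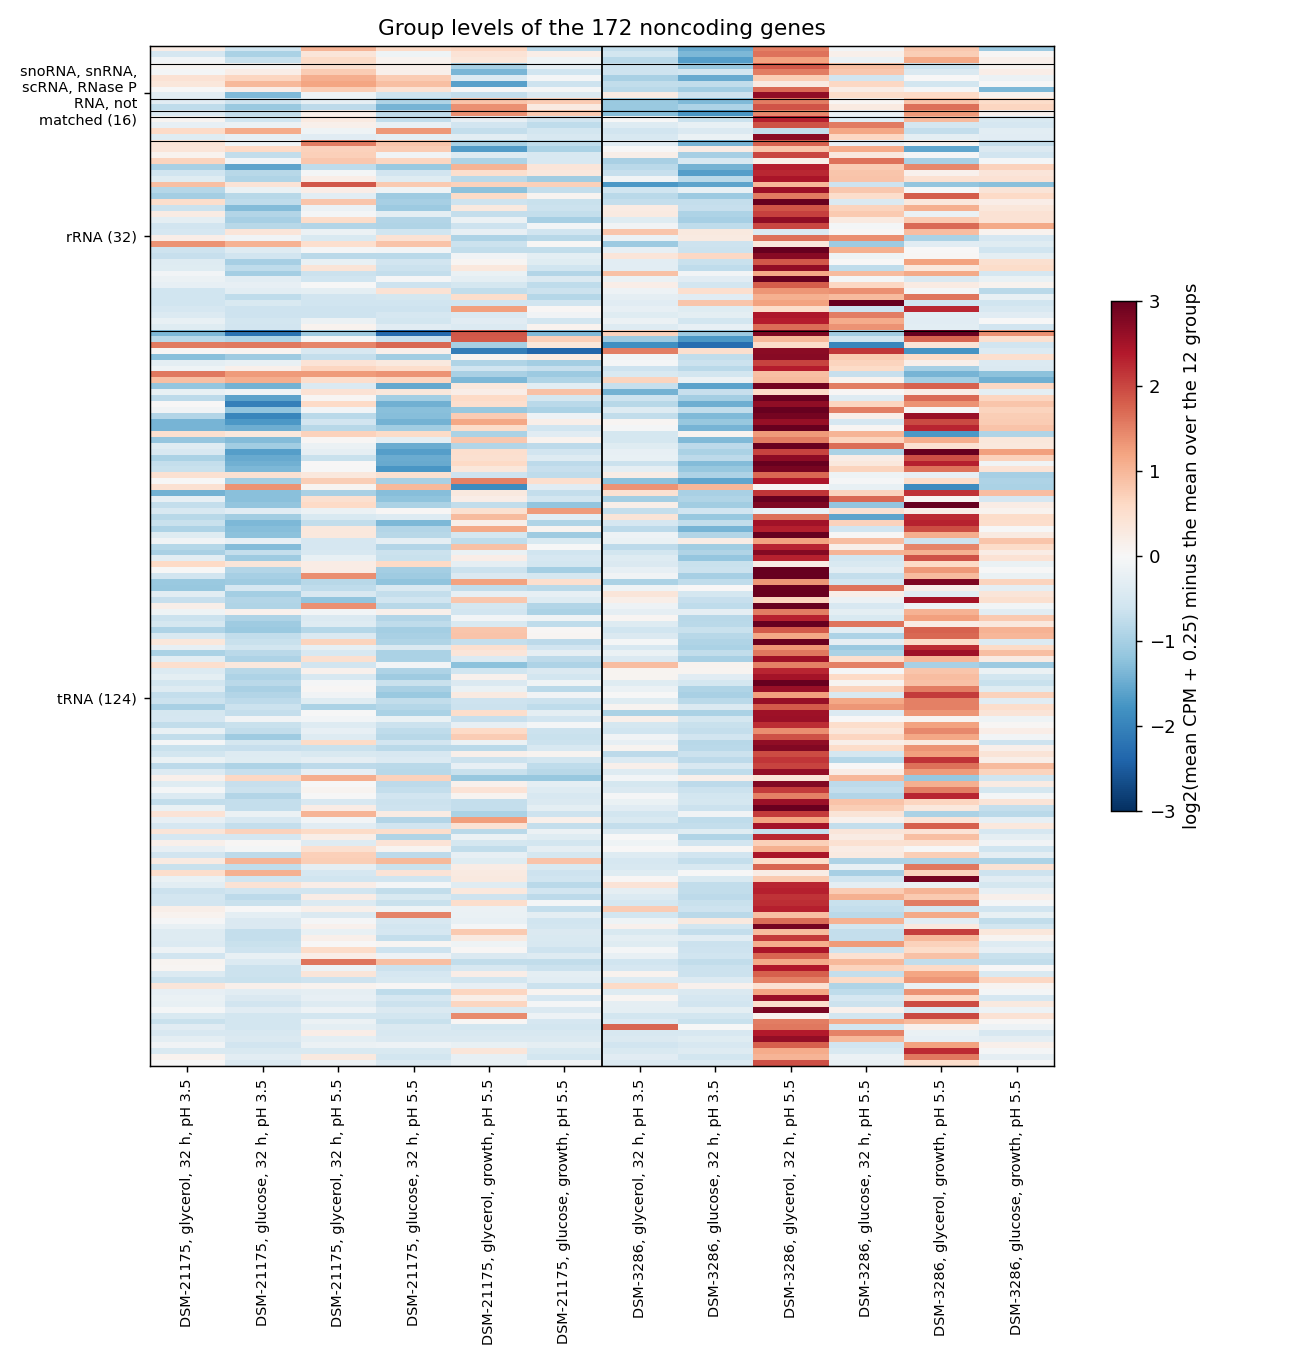
Mean level of each of the 172 genes in each group, as log2(mean CPM + 0.25) minus the gene's mean over the 12 groups (red, above that mean; blue, below), sorted by class and then by level. For 119 of the 172 genes the highest mean was in DSM-3286 on glycerol at 32 h and pH 5.5, and for 25 in DSM-3286 growing on glycerol.

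The question of how acidity bears on these RNAs was tested at 32 h. Averaged over strain and carbon source, 83 of the 171 genes were lower at pH 3.5 and 2 were higher, with a median log2 fold change of -1.34 (edgeR, adjusted p under 0.05). Among all 6537 genes 34.3% were lower and 34.2% higher, with a median of -0.01. The counts were 71 and 1 without the 5 libraries. The 2 higher genes were the tRNA genes YALI0A09152r and YALI0D14938r, the second named after its values were seen. Because the rule chose genes with reads in some group, these counts describe the set and are no support for a trend.

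Averaged tests fail for some sparse genes. Where a gene had no read in all libraries of 1 group, the averaged test could return a p near 1 whatever the other groups showed. Of 77 genes with such a group in the pH comparison, 44 had p over 0.9, and these are uncalled for want of a test. Among the 94 genes with reads in every group compared, 69 were lower and 1 higher. Setting groups at 0 to 3 reads over the group moved the median to -1.61. Pairs with a group at 0 and 3 reads or fewer in the other were left out of it, for 55 genes in DSM-21175 on glucose. The averages of such genes cover fewer pairs, so the 2 medians are not fully alike. Tests of 1 group against 1 other did call some genes with a group at 0, such as 9 of 11 for pH in DSM-3286 on glycerol, but a pair with few reads in both groups leaves little to test.

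The 4 pairs of groups behind the pH comparison were far apart. In DSM-3286 on glycerol 148 genes were lower and 1 was higher at pH 3.5, with a median of -3.20 (all genes, 34.3% lower, 31.9% higher and 66.2% either). On glucose 73 were lower and none higher, with a median of -1.50 (all genes, 23.4% lower). In DSM-21175 12 were lower on glycerol and 5 on glucose, with medians of -0.59 and -0.06 and none higher (all genes, 13.4% and 13.9% lower). In the DSM-21175 pair on glucose 62 genes had a group with no read, none of them called, and for 55 of these the other group held 3 reads or fewer. Leaving out those 55 and setting the remaining groups at 0 to 3 reads gave a median of -0.17. The summed CPM of the genes tested at pH 3.5 was 0.591 of that at pH 5.5 on glucose and 0.608 on glycerol in DSM-21175. The gene higher in DSM-3286 on glycerol, named after its values were seen, was the rRNA gene YALI0B09108r, at 2.09.

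The pH effect itself differed between the strains for part of the set. The fall was deeper in DSM-3286 for 47 genes (27.5% of 171) and in DSM-21175 for none, where all genes gave 20.9% and 20.1% (edgeR, adjusted p under 0.05). They were all 12 snoRNA, snRNA, scRNA and RNase P RNA genes, 25 tRNA and 10 rRNA genes. There were 50 without the 5 libraries, where the snRNA gene YALI0B20936r lost its call (0.62, edgeR adjusted p = 0.0524), as it did in 4 other settings. Of 77 genes with a group at 0, 35 had p over 0.9. The highest mean was in DSM-3286 on glycerol at 32 h and pH 5.5 for 119 of the 172 genes. Through that group alone 12 genes met the rule. For such genes a deeper fall in DSM-3286 was partly built in, so the counts describe the set and are no support for a trend.

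The tRNA gene YALI0E14531r had 0, 1 and 4 reads at pH 3.5, against 34, 36 and 44 reads at pH 5.5, in DSM-3286 on glycerol. In DSM-21175 it had 6, 11 and 13 reads at pH 3.5, against 10, 17 and 22 reads at pH 5.5. The fall was deeper in DSM-3286 by 3.47 ± 0.70 over both carbon sources (edgeR adjusted p = 0.000281). YALI0E11231r, another tRNA gene, had 4, 4 and 4 reads at pH 3.5, against 63, 72 and 88 at pH 5.5, in DSM-3286 on glycerol, and at most 9 reads in any DSM-21175 library of either pH. The rRNA gene YALI0E08107r had 0, 0 and 1 read at pH 3.5, against 10, 13 and 18 reads at pH 5.5, in DSM-3286 on glycerol.

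YALI0A09152r, a tRNA gene, ran the other way. In DSM-3286 on glycerol it had 1.51, 2.22 and 2.53 CPM at pH 3.5, against 0.621, 0.724 and 0.814 CPM at pH 5.5. In DSM-3286 on glucose it had 1.28, 1.6 and 1.91 CPM at pH 3.5, against 0 and 1.09 CPM at pH 5.5. The groups lay apart in DSM-3286. In DSM-21175 they overlapped, with 0.534, 1.14 and 1.41 CPM at pH 3.5, against 0.529, 0.685 and 0.951 CPM at pH 5.5, on glycerol, and 1.59, 2.19 and 2.56 CPM against 1.07, 1.71 and 1.92 CPM on glucose. Averaged over the 4 pairs it rose by 1.01 ± 0.35 at pH 3.5 (edgeR adjusted p = 0.0146).

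**Figure D4:**
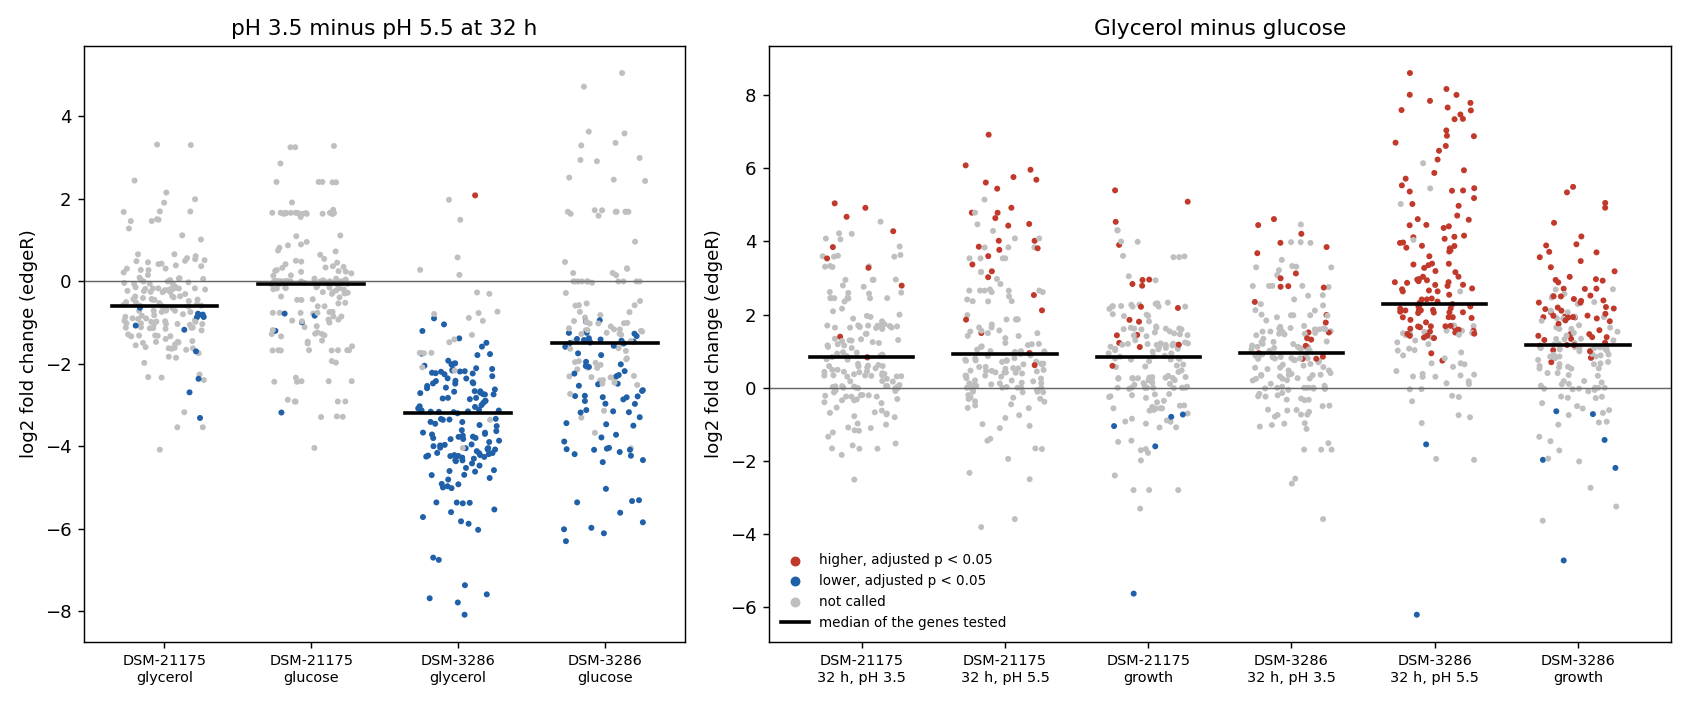
Log2 fold change of each of the 171 genes tested (points, spread sideways at random) for pH 3.5 minus pH 5.5 at 32 h (left) and glycerol minus glucose (right), by strain and by carbon source or phase, with the median as a line. The median for pH was -3.20 in DSM-3286 on glycerol and -0.59 in DSM-21175 on glycerol. Values of genes with no read in a group depend on a small added count and are no bound.

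For carbon source, 62 of the 171 genes were higher and 5 lower on glycerol in growth phase, with a median log2 fold change of 1.08 (edgeR, adjusted p under 0.05). Among all genes 31.8% were higher and 30.7% lower, with a median of -0.01. Leaving out the 5 libraries gave counts of 52 and 5. Of 34 genes with a group at 0, 10 had p over 0.9. The 5 lower genes were the 3 snRNA genes given above, YALI0A09152r and the rRNA gene YALI0A16126r. Among the tRNA genes tested 50 of 123 were higher and 1 lower, and among the rRNA genes 5 of 32 were higher and 1 lower.

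At 32 h, 92 genes were higher and 1 lower on glycerol, with a median of 1.44, where all genes gave 22.2% higher and 21% lower with a median of 0.01. The lower one, named after its values were seen, was YALI0E25234r, whose gene type could not be matched. There were 90 and 2 without the 5 libraries. Of 77 genes with a group at 0, 16 had p over 0.9. The largest count was in DSM-3286 at pH 5.5, with 120 higher and 2 lower (all genes, 18.8% and 16.9%). In DSM-3286 at pH 3.5, 23 were higher (all genes, 21.1%). In DSM-21175, 10 were higher at pH 3.5 and 28 at pH 5.5, against 7.39% and 4.47% of all genes. None was lower at either pH, against 8.35% and 7.4% of all genes. In growth, 19 were higher and 5 lower in DSM-21175 (all genes, 24.5% and 22.2%), and 64 were higher and 6 lower in DSM-3286 (all genes, 29.3% and 26%). The medians in growth were 0.85 in DSM-21175 and 1.18 in DSM-3286.

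The tRNA gene YALI0A04015r was well above its glucose levels on glycerol in both strains. In DSM-3286 it had 16.4, 18.9 and 20.6 CPM on glycerol, against 3.12, 3.46 and 4.08 CPM on glucose, in growth phase. In DSM-21175 it had 4.3, 4.68 and 6.49 CPM on glycerol, against 0.266, 0.295 and 0.452 CPM on glucose. The groups lay far apart in both strains, and the log2 fold change was 3.14 ± 0.29 (edgeR adjusted p = 1.52e-10). At 32 h it was 2.86 ± 0.32 (edgeR adjusted p = 4.8e-08). The gene was lower in DSM-21175 than in DSM-3286 by 3.04 ± 0.24 and fell at 32 h by 2.51 ± 0.29 relative to growth, so glycerol growth of DSM-3286 held its highest level.

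The tRNA gene YALI0F16533r had few reads outside glycerol. It had 41, 46 and 102 reads on glycerol, against 3, 5 and 7 reads on glucose, in growing DSM-3286. At 32 h and pH 5.5 it had 24, 35 and 40 reads on glycerol and no read in either glucose library. In DSM-21175 it had at most 16 reads in any library on glycerol and at most 2 on glucose, and without the 5 libraries its call in growth was lost, the averaged test returning a p near 1. YALI0A03311r, a tRNA gene with reads in every library, rose on glycerol in growth by 1.25 ± 0.22 and at 32 h by 0.82 ± 0.20 (edgeR adjusted p = 1.52e-05 and 0.00127).

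The rRNA gene YALI0A16126r was lower on glycerol in growth and not called at 32 h. It had 0.509, 0.619 and 1.45 CPM on glycerol, against 1.54, 2.33 and 2.65 CPM on glucose, in growing DSM-3286. In DSM-21175 it had 0.703, 0.719 and 0.88 CPM on glycerol, against 1.17, 1.18 and 1.95 CPM on glucose. The carbon sources did not overlap in either strain, and the log2 fold change was -1.16 ± 0.29 (edgeR adjusted p = 0.00087). At 32 h it gave -0.19 ± 0.16 (edgeR adjusted p = 0.326). YALI0A09152r had no read in any growing glycerol library of either strain, and on glucose it had 0, 5 and 11 reads in DSM-21175 and 0, 2 and 7 reads in DSM-3286.

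The glycerol effect at pH 5.5, as signed glycerol minus glucose, was more positive at 32 h than in growth for 28 genes and less positive for 3. All genes gave 23% and 26% (49% in all). A more positive value is not always a larger effect, as some genes were lower on glycerol in growth, such as YALI0B20936r at -0.81. The counts became 37 and 1 without the 5 libraries. The 3 were YALI0E01422r, the rRNA gene YALI0A08206r and the tRNA gene YALI0D16555r, the last 2 named after their values were seen. For YALI0E01422r the difference was -0.66 ± 0.25 (edgeR adjusted p = 0.0274). It was -0.29 with an adjusted p of 0.0955 (edgeR) without the 5 libraries, and without DSM-21175 replicate 3 on glucose at 32 h and pH 5.5 alone it was -0.34 with an adjusted p of 0.0837.

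Between the strains the signed glycerol effect differed for 11 genes and was more positive in DSM-3286 for 10 of them. All genes gave 13.2% in that direction and 13.8% in the other. The tRNA gene YALI0E22308r differed most among those named, by -2.39 ± 0.46 (edgeR adjusted p = 0.000307). In growth phase it had 0.48, 0.703 and 0.77 CPM on glycerol, against 1.25, 2.08 and 2.75 CPM on glucose, in DSM-21175. In DSM-3286 it had 1.45, 1.83 and 2.95 CPM on glycerol, against 0.779, 0.951 and 1.16 CPM on glucose. The groups lay apart in both strains and in opposite order. The rRNA gene YALI0C00099r alone differed the other way, by 1.22 ± 0.37 (edgeR adjusted p = 0.014), and lost its call without the 5 libraries (1.02, edgeR adjusted p = 0.0675).

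The pH effect differed between carbon sources for 8 genes, all with the deeper fall on glycerol, where all genes gave 9.65% in that direction and 9.81% in the other. They included both scRNA genes, RNase P RNA and the snRNA genes YALI0C03391r and YALI0F10145r. For YALI0A01389r the difference was -1.06 ± 0.28 and for RNase P RNA -0.91 ± 0.25 (edgeR adjusted p = 0.00959 and 0.0119). The call of YALI0C03391r was lost in 14 settings, with differences of -0.96 to -0.79 and an adjusted p of up to 0.122, and that of YALI0D06405r in 3, with an adjusted p of up to 0.0621 (edgeR). Leaving out the 5 libraries gave 16 genes. The count was 5 without DSM-21175 glycerol replicate 2, DSM-3286 glycerol replicate 1 or DSM-3286 glucose replicate 3, and 4 without DSM-21175 glucose replicate 2, all at pH 3.5.

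At 32 h and pH 5.5, 48 genes were higher and 34 lower than in growth, with a median of 0.32, where all genes gave 42.9% higher and 43.2% lower (86.1% in all) with a median of 0.01. The counts were 42 and 30 with the 5 libraries left out. Of 75 genes with a group at 0, 22 had p over 0.9. Setting groups at 0 to 3 reads over the group moved the median to 0.63. Pairs with few reads in both groups were left out of it as for pH, for 32 genes in DSM-21175 on glucose. Within DSM-3286 the median was 1.40 on glycerol and 0.40 on glucose, and within DSM-21175 0.32 and -0.32. In the average over strains and carbon sources all 6 snRNA genes rose, both scRNA genes and RNase P RNA fell, and of the tRNA genes 27 rose and 28 fell. The scRNA and RNase P RNA falls were called in DSM-21175 alone, and the scRNA sum in DSM-3286 on glycerol was 67.3 ± 8.78 CPM at 32 h, against 46.6 ± 4.7 CPM in growth (SD, n = 3 each). Of the rRNA genes 12 rose and 3 fell.

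The rRNA gene YALI0A16126r rose by 2.26 ± 0.18 (edgeR adjusted p = 1.04e-12). On glycerol it had 3.8, 5.63 and 5.66 CPM at 32 h, against 0.703, 0.719 and 0.88 CPM in growth, in DSM-21175. In DSM-3286 it had 2.79, 5.07 and 8.85 CPM at 32 h, against 0.509, 0.619 and 1.45 CPM in growth. The phases did not overlap in either strain. Between the strains its log2 fold change was -0.07 ± 0.14 (edgeR adjusted p = 0.656).

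The tRNA gene YALI0B02618r rose by 3.88 ± 0.37 at 32 h (edgeR adjusted p = 7.32e-11). On glycerol it had 82, 91 and 95 reads at 32 h and pH 5.5, against 1, 3 and 4 reads in growth, in DSM-3286. In DSM-21175 it had 4, 14 and 18 reads at 32 h, against 0, 2 and 2 reads in growth. The tRNA gene YALI0A03311r went the other way, falling by 1.38 ± 0.17 (edgeR adjusted p = 1.84e-08). It had 1.83, 1.96 and 2.44 CPM at 32 h, against 7.43, 8.03 and 9.49 CPM in growth, in DSM-21175 on glycerol.

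Averaged over carbon source, phase and pH, 76 of the 171 genes were lower and 11 higher in DSM-21175 than in DSM-3286, with a median of -1.30. All genes gave 37.5% lower and 43% higher (80.4% in all) with a median of 0.03. Leaving out the 5 libraries gave 76 and 10. Of 85 genes with a group at 0, 46 had p over 0.9. On glycerol at 32 h and pH 5.5 140 genes were lower and 4 higher (all genes, 34.5% and 35.3%). At pH 3.5 on glycerol 16 were lower and 19 higher (all genes, 30.8% and 33.2%), with a median of -0.13. On glucose the median was -1.55 at pH 5.5 and -0.01 at pH 3.5, and in growth -1.46 on glycerol and -1.19 on glucose. The summed CPM in DSM-21175 was 0.482 of that in DSM-3286 on glycerol at pH 5.5 and 1.52 at pH 3.5. On glucose at 32 h these ratios were 1.03 and 1.76, and in growth 0.731 on glycerol and 0.983 on glucose.

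The rRNA gene YALI0E08107r was higher in DSM-21175 by 3.08 ± 0.27 (edgeR adjusted p = 1.84e-11). In growth on glycerol it had 6, 11 and 19 reads in DSM-21175, against 0, 2 and 2 reads in DSM-3286, and on glucose 12, 13 and 19 against 1, 1 and 3 reads. YALI0E22308r was higher in DSM-21175 by 2.39 ± 0.22 (edgeR adjusted p = 3.7e-11). At 32 h and pH 3.5 on glycerol it had 60, 88 and 89 reads in DSM-21175 and 0, 2 and 7 in DSM-3286.

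RNA polymerase III and ribosome maturation were represented by 3 coding genes whose symbols the deposited log2 table gives. The count row behind each symbol was inferred from its values over the libraries (centred log2 values), as the closest of the tags that the log2 table lacks. The largest deviation was 0.234 (log2) for TFC2 with YALI0F05104g, 0.23 for BUD20 with YALI0D13068g and 0.235 for REI1 with YALI0B08734g, against 0.932, 0.89 and 0.711 for the next closest tags. TFC2, named for a transcription factor of RNA polymerase III, was higher on glycerol in growth by 1.32 ± 0.13, BUD20 by 1.21 ± 0.09 and REI1 by 0.91 ± 0.09 (edgeR adjusted p = 7.23e-10, 6.85e-13 and 5.3e-10). At 32 h TFC2 gave 0.15 ± 0.09 (edgeR adjusted p = 0.218), BUD20 rose by 0.23 ± 0.06 and REI1 by 0.21 ± 0.06. At pH 3.5 TFC2 rose by 0.43 ± 0.09 and REI1 by 0.15 ± 0.06 (edgeR adjusted p = 0.000201 and 0.0351), while most noncoding genes called there fell. REI1 lost that call without any of 9 single libraries (0.12 to 0.15, adjusted p of up to 0.086). BUD20 gave -0.04 ± 0.06 (edgeR adjusted p = 0.547).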

How the data were processed

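Read counts per gene, whole numbers deposited by the authors, were used as deposited. Per the submitters' processing notes the tools were BWA 0.7.12-r1039, featureCounts 1.5.1 and edgeR, with no roles given. A table of log2 FPKM values, deposited by the authors with decimal commas, served as an alternative input. Genome build, strand setting and the treatment of multiply mapped reads are not stated in any source used here, and no coordinates or sequences are shown.

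Gene types came from RefSeq (assembly ASM176148v1, strain CLIB89) by gene ID for 151 genes and by neighbouring genes and length (within 2 bases) for 17. All 35 libraries went into 1 edgeR 4.0.16 quasi-likelihood fit in R 4.3.3, with a coefficient for each of the 12 groups (TMM, filterByExpr, robust, 23 residual degrees of freedom). The Benjamini-Hochberg adjustment covered 6537 genes, and an adjusted p under 0.05 was a call. The steps were run on simulated counts, drawn from a single mean level per gene with set fold changes for some genes. Groups without reads were not built in, so the averaged tests that fail for sparse genes were not examined there. All 34 replicate pairs differed by more than sampling noise (chi-square of 3.39 or more per degree of freedom). CPM were read counts divided by the TMM-scaled library total.

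The genes, lists and tests were chosen with earlier results of these data known. Named were the 10 genes with the highest mean CPM, the 5 highest per kilobase, and, with a mean of 10 or more reads, up to 5 genes called in each direction per comparison with 1 sign in every pair of groups, up to 3 per difference of effects, the 2 genes on each side of the rule, and TFC2, BUD20 and REI1. Alternatives were RLE scaling, no filter, DESeq2 1.42.0, limma 3.58.1 on the log2 table, a fit of only the libraries compared, a replicate block, leaving out each library and leaving out the 5 that stand apart.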

Additional observations from a re-analysis of the deposited data

Results flagged for a closer look

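Effects that differed between groups by a test of the difference itself (edgeR quasi-likelihood, Benjamini-Hochberg adjusted p under 0.05) are listed with their differences on the log2 scale. The glycerol effect differed between 32 h and growth for 31 noncoding genes of the 171 tested, where 49% of all genes were called, and between the strains for 11, where 27% were. The pH effect differed between carbon sources for 8 and between the strains for 47, where 19.5% and 41% of all genes were called. The share of the noncoding genes called was below that of all genes in each.

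For the glycerol effect at 32 h minus that in growth, YALI0A09152r gave 4.85, YALI0C02277r 3.02, YALI0E11231r 2.88 and the snoRNA gene YALI0E01422r -0.66. All but the last were tRNA genes, and YALI0A09152r and YALI0C02277r had groups with no read. The call of YALI0A09152r was lost without DSM-3286 glucose growth replicate 1 (4.12, edgeR adjusted p = 0.0578), and that of YALI0E11231r without the 5 libraries that stand apart (2.51, adjusted p = 0.081) or without DSM-21175 glucose growth replicate 3 alone (2.28, adjusted p = 0.0839).

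For the glycerol effect in DSM-21175 minus that in DSM-3286, the rRNA gene YALI0C00099r gave 1.22, and the tRNA genes YALI0E22308r, YALI0A02739r and YALI0B04818r gave -2.39, -1.60 and -1.17.

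For the pH effect on glycerol minus that on glucose, the rRNA gene YALI0E27318r gave -2.05, the scRNA gene YALI0A01389r -1.06 and the snRNA gene YALI0C03391r -0.93. The call of YALI0E27318r was lost without DSM-21175 glucose pH 3.5 replicate 2 (-1.76, edgeR adjusted p = 0.0629). For the pH effect in DSM-21175 minus that in DSM-3286, the tRNA genes YALI0E11231r, YALI0D09515r and YALI0B15928r gave 4.83, 4.33 and 4.22. They had 10 or more reads in 8, 12 and 7 libraries, and their highest mean was in DSM-3286 on glycerol at 32 h and pH 5.5. The read rule favours genes high in such a group, so these differences are a description. The call of YALI0B15928r was lost without DSM-21175 glucose pH 3.5 replicate 1, the test returning a p near 1.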

How the results depend on the processing

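No result reversed under any alternative run. With a mean of 10 or more reads as the rule, 51 genes were in the set. Of these 27, 35, 43, 36 and 35 were called for glycerol in growth, glycerol at 32 h, pH, phase and strain. In these comparisons 62.6%, 43.2%, 68.5%, 86.1% and 80.4% of all genes were called. A limit of 5 reads gave 293 genes and one of 20 gave 84. limma on the deposited log2 values, which has no failing averaged tests, called 132 for pH and 137 for strain. For carbon source by phase, carbon source by strain, pH by carbon source and pH by strain it called 66, 47, 46 and 102. The share of all genes called was not computed for limma or the other alternatives, so their counts stand without it. DESeq2 called 19 for carbon source by strain and 13 for pH by carbon source. Without the 5 libraries that stand apart, 16 were called for pH by carbon source. Leaving out each library gave 54 to 71 genes for glycerol in growth, 81 to 97 for glycerol at 32 h, 65 to 85 for pH, 75 to 84 for phase, 74 to 91 for strain, and 28 to 40, 10 to 15, 4 to 11 and 41 to 55 for the 4 differences in the order above. For pH by carbon source the count was 5 without DSM-21175 glycerol pH 3.5 replicate 2, DSM-3286 glycerol pH 3.5 replicate 1 or DSM-3286 glucose pH 3.5 replicate 3, and 4 without DSM-21175 glucose pH 3.5 replicate 2. Pooled over both strains, deviations of libraries with the same replicate number had a median correlation of 0.00111, against 0.00347 for other libraries. Of 187 same-numbered pairs 20 were over 0.1, and the lowest was -0.493. Most of the libraries that stand apart were replicate 3 of DSM-21175, and a deviation shared within that strain was not tested. With the replicate block the counts were 65, 92, 82, 82, 87, 32, 11, 7 and 44. Of 162 pairs of a named gene and a comparison, 18 lost their call under some setting, YALI0F10145r on glycerol at 32 h (0.26 with the block, adjusted p = 0.0537, edgeR) and the coding gene BUD20 in pH by strain (-0.30, adjusted p = 0.0503, edgeR) among them. The causes were not tested. Depth limits the 121 genes with a mean under 10 reads.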

Other observations

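Coding genes next to the noncoding genes called were counted after seeing the data, and these shares are descriptions. Beside genes higher on glycerol, 23.2% of the tested coding neighbours were called higher in growth, against 31.8% of all genes, and 19.6% at 32 h, against 22.2%. Beside genes lower at pH 3.5, 36.1% were called lower, against 34.3% of all genes. At 32 h relative to growth, 47.1% of the neighbours of higher genes were higher, against 42.9%, and 37% of the neighbours of lower genes were lower, against 43.2%. Beside genes lower in DSM-21175, 44.2% were lower, against 37.5%, and beside the 11 genes higher in DSM-21175, 13 of 19 were higher (68.4%), against 43%. Directions with 5 or fewer noncoding genes called had 8 or fewer neighbours. The part of reads running on from a neighbour was not tested.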
